A study of Mus musculus with 8 samples.

Results

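The miR-132 and miR-212 cluster makes 4 mature microRNAs from 2 neighbouring hairpins: mmu-miR-132-3p, mmu-miR-212-3p, mmu-miR-132-5p and mmu-miR-212-5p, written below without the prefix for mouse. All 4 were found by name among the 1881 mouse miRNAs on the array. They were followed in 8 mouse kidney samples, 4 taken after ischemia-reperfusion injury (IRI) and 4 after sham surgery. Each sample was hybridised to 1 single-colour miRNA array. The IRI animals, male C57BL/6 mice of 9 weeks, underwent right nephrectomy and ischemia of the left kidney by clamping, lasting 25 or 45 min. Harvest followed at 12 or 24 h. Sham surgery was the incision alone, without nephrectomy or clamping, so the loss of a kidney and the injury cannot be told apart. Strain, sex and age are stated for the IRI model and not separately for sham mice. The labels do not tie a clamp or harvest time to any IRI sample. They also do not say whether the samples came from different mice, and the p-values cover the spread among these samples alone, which may be technical.

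The 2 hairpins lie in 1 noncoding transcript that the transcription factor CREB switches on, best known in neurons after activity or growth factor signalling. A microRNA finds its target mRNAs mainly through its seed, bases 2 to 8 from the 5′ end, and each hairpin can give a mature strand from either arm. A known target of miR-132 in endothelium is Rasa1, a brake on Ras signalling. In mouse kidney fibrosis, miR-132 has been linked to the proliferation of myofibroblasts.

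The mature sequences are shown first because they separate what the 4 arms share from what the array can tell apart. They are RefSeq sequences of build GRCm38.p6, written 5′ to 3′ with the seed in capitals.
miR-132-3p: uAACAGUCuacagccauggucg
miR-212-3p: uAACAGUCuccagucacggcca
miR-132-5p: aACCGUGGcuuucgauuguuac
miR-212-5p: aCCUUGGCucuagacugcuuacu
The 3p arms share the seed AACAGUC, and no other of the 1679 mature mouse names in the RefSeq table carries it. The seeds of the 5p arms, ACCGUGG and CCUUGGC, belong to these arms alone in that table. The 3p arms are identical over their first 9 bases and at 17 of 22 positions. The 5 differences, with the base of miR-132-3p first and positions counted from the 5′ end, are A10C, C14U, U17C, U20C and G22A.

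Both hairpins are read from the plus strand of chromosome 11, Mir212 at chr11:75173388-75173478 and Mir132 at chr11:75173682-75173747 in GRCm38.p6, with 203 bases between them. In the RefSeq annotation the nearest genes are Hic1 before them and Ovca2 after them, and none lies between. In the hairpins below, the capitals mark the mature 5p and 3p arms.
Mir212: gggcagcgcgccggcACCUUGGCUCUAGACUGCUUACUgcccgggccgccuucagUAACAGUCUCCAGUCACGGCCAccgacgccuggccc
Mir132: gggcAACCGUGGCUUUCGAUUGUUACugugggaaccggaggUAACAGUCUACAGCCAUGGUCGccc

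Each arm was measured by 2 probes of different length, each printed as 15 spots per array. The probes pair with the 3′ part of the miRNA, where the 3p arms differ, and leave most of the shared seed unpaired. Those of the 3p arms are shown because the results rest on them, as DNA, 5′ to 3′.
miR-132-3p, longer probe: cgaccatggctgtaga
miR-132-3p, shorter probe: cgaccatggctgtag
miR-212-3p, longer probe: tggccgtgactgga
miR-212-3p, shorter probe: tggccgtgactgg
The probes of miR-132-3p pair with bases 7 to 22 and 8 to 22 of that miRNA, those of miR-212-3p with bases 9 to 22 and 10 to 22. A probe of one 3p arm pairs with the other 3p arm over at most 5 bases in a row (4 for the miR-132-3p probes). The longest stretch with any other mouse miRNA in the table was 10 bases, between miR-132-3p's probes and miR-1911-5p. No other probe on the array repeats the sequence of a probe of these 4 arms.

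The 2 groups of arrays differed in overall signal. The scanner software called 393 to 447 miRNAs detected on IRI arrays and 327 to 379 on sham arrays. The 75th percentile of signal, over the 317 miRNAs detected on all 8 arrays, was 445 to 562 on IRI arrays and 356 to 456 on sham arrays. Signals below were divided by this percentile, rescaled to a geometric mean of 1, and are called scaled signals, in linear intensity units. For the test they were raised to a floor of 17.3 and taken to log2. IRI arrays all lay in one row of the slide and sham arrays in the other, so slide row and group cannot be told apart. With 4 arrays in each group, their number limits the precision.

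miR-132-3p was higher in injured kidneys. Its scaled signal was 54.8, 55.5, 54.6 and 51.7 in IRI replicates 1, 2, 3 and 18, against 16.9, 14.2, 24.1 and 14.6 in sham replicates 1, 2, 3 and 6. The IRI arrays lay close together, and every one of them lay above every sham array. It was detected on 4 of 4 IRI arrays and on 1 of 4 sham arrays, replicate 3, and the other 3 sham values were below the floor. The mean was 54.1 ± 1.70 in IRI and 17.5 ± 4.61 in sham (SD, n = 4 each).

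The rise passed the test across the 379 miRNAs that were detected on all 4 arrays of IRI, of sham or of both (limma, log2 change 1.53 ± 0.12 with its SE, adjusted p = 0.000291). It entered this test only through its detection on IRI arrays. With all 1881 miRNAs tested, whatever their detection, its adjusted p was 0.00465 (limma). That fit also held the 1403 miRNAs detected on no array, and 3 sham values of miR-132-3p remained the floor. Its p-value is therefore no test free of detection or floor. Of the 379 tested miRNAs 46 were called higher, 12.1%, and 48.8% were called in either direction. Where detection on all 8 arrays was required, which leaves miR-132-3p out, 31 of 317 were called higher. IRI arrays lay entirely above sham arrays for 10.6% of the tested miRNAs. With 3 sham arrays at the floor the fitted change is no measured size, and it moved with how dim signals were treated. It was 0.65 with the floor doubled (adjusted p = 1.52e-05, limma), where all 4 sham values are the floor. They then have no spread, so that p-value does not show that the call held. With the total gene signal of the scanner software the change was 2.25 (adjusted p = 8.67e-05, limma). The call ended with normexp background correction, which adds an offset of 50 to every spot (log2 change 0.17, adjusted p = 0.0963, limma). There the scaled values were 164, 161, 176 and 178 on IRI arrays, against 137, 138, 166 and 163 on sham arrays, and the groups overlapped. The offset was added before the arrays were scaled, so the scaling divided the offset too. In the main scaling the divisors were 1.19 and 1.25 for IRI replicates 1 and 2, and 0.827 and 0.794 for sham replicates 3 and 6. The part of the scaled offset in the overlap was not tested.

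miR-212-3p, which carries the same seed, was lower in injured kidneys relative to the rest of the array. Its scaled signal was 243, 230, 243 and 255 in IRI replicates 1, 2, 3 and 18, against 356, 305, 389 and 364 in sham replicates 1, 2, 3 and 6. It was detected on all 8 arrays, far above the floor, and every IRI array lay below every sham array. The mean was 243 ± 9.91 in IRI and 354 ± 35.3 in sham (SD, n = 4 each). The fall passed the test (limma, log2 change -0.54 ± 0.08 with its SE, adjusted p = 0.00161) and was the 29th largest, among 139 miRNAs called lower, 36.7% of those tested. IRI arrays lay entirely below sham arrays for 35.9%.

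The call for miR-212-3p changed with the way arrays were scaled. Unscaled, its signal was 270 ± 21.4 in IRI and 318 ± 32.3 in sham (SD, n = 4 each), and the log2 change was -0.24 (adjusted p = 0.164, limma). With scaling to the labelling spike-ins, control RNAs of the labelling kit, it was -0.22 (adjusted p = 0.158, limma). The median change of all tested miRNAs moved with it: it was -0.11 under the percentile scaling, 0.17 on unscaled signals and 0.19 under spike-in scaling. Relative to the median change under the percentile scaling, miR-212-3p stood at -0.43 and miR-132-3p at 1.64. Since these scalings apply 1 factor per array, the distance of a miRNA above the floor from the median is nearly fixed whichever is used. In this bulk tissue, fewer cells of a type and less RNA per cell cannot be told apart.

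**Figure D1:**
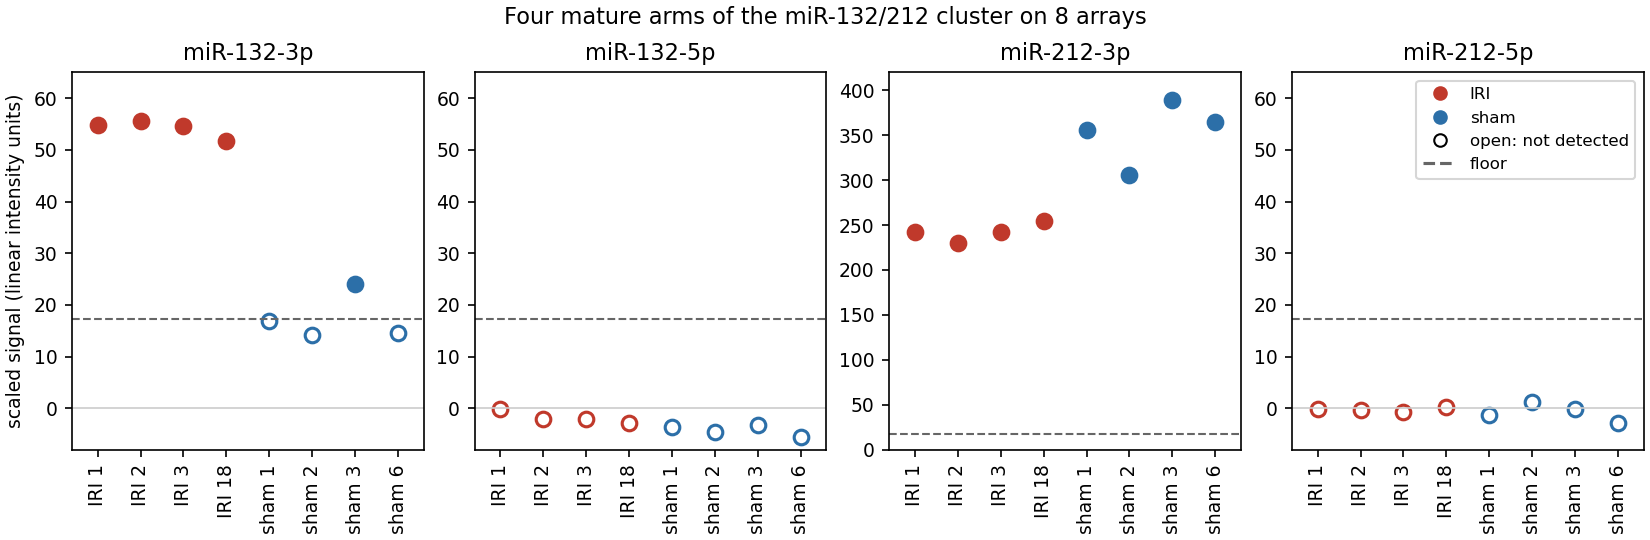
Scaled signal (linear intensity units) of the 4 mature arms on each array, IRI arrays in red and sham arrays in blue, with filled points where the scanner software called the miRNA detected, open points where it did not, and the floor of 17.3 as a dashed line. The miR-212-3p panel has its own axis range. miR-132-3p lies between 51.7 and 55.5 on IRI arrays and between 14.2 and 24.1 on sham arrays, miR-212-3p is lower on every IRI array, and both 5p arms stay near 0.

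**Figure D2:**
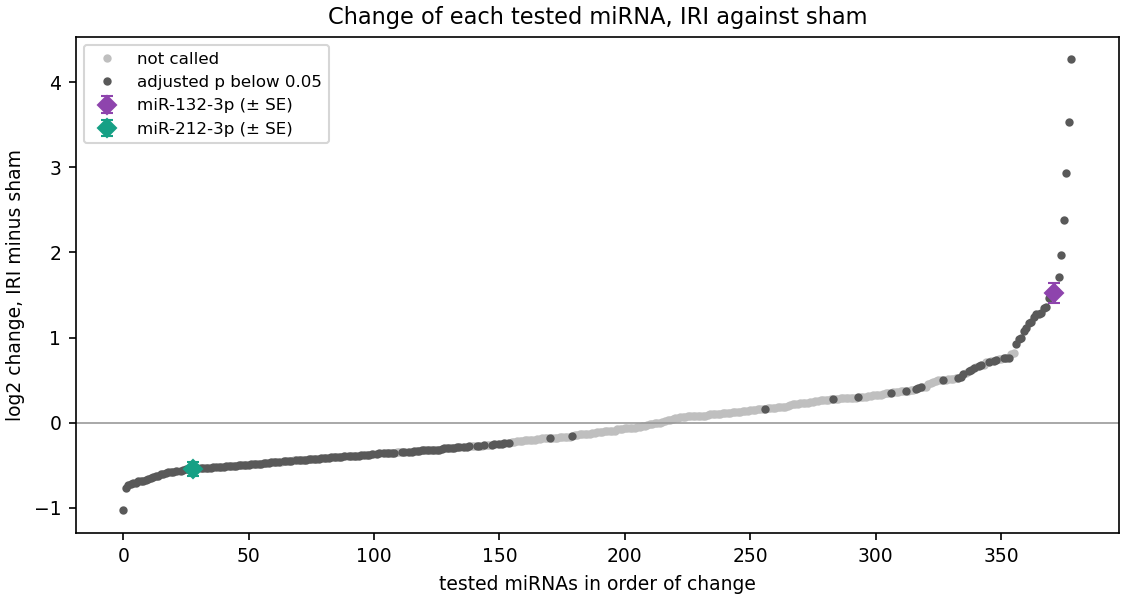
Log2 change, IRI minus sham, of the 379 tested miRNAs in order of size, dark where the adjusted p was below 0.05, with miR-132-3p and miR-212-3p marked with their SE. miR-132-3p lies at 1.53, with 3 of its sham values at the floor, and miR-212-3p, at -0.54, among a broad run of small falls.

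The 3p arms of the cluster changed by unequal amounts. This was tested on the ratio of miR-132-3p to miR-212-3p signal within each array, which shows how the pair shifted between groups but not which of the 2 is more abundant. The log2 ratio was -2.15, -2.05, -2.15 and -2.30 in IRI replicates 1, 2, 3 and 18, against -4.37, -4.14, -4.01 and -4.40 in sham replicates 1, 2, 3 and 6. All IRI values lay above all sham values, by 2.07 on average, which is no measured size because 3 of the 4 sham values of miR-132-3p are the floor (two-sided exact permutation test over the 70 splits of the arrays, p = 0.0286, which is the smallest they can give). That separation and its p-value followed from the arms being separated in opposite directions already, so they add no further support. This was the only pair of members with both arms tested. With the measured signals in place of the floor, the difference was 2.21 (exact permutation test, p = 0.0286, fixed in the same way). It was 0.57 with normexp and 1.19 with the floor doubled, and in both the groups did not overlap (exact permutation test, p = 0.0286). With the floor doubled, all 4 sham values of miR-132-3p are the floor.

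**Figure D3:**
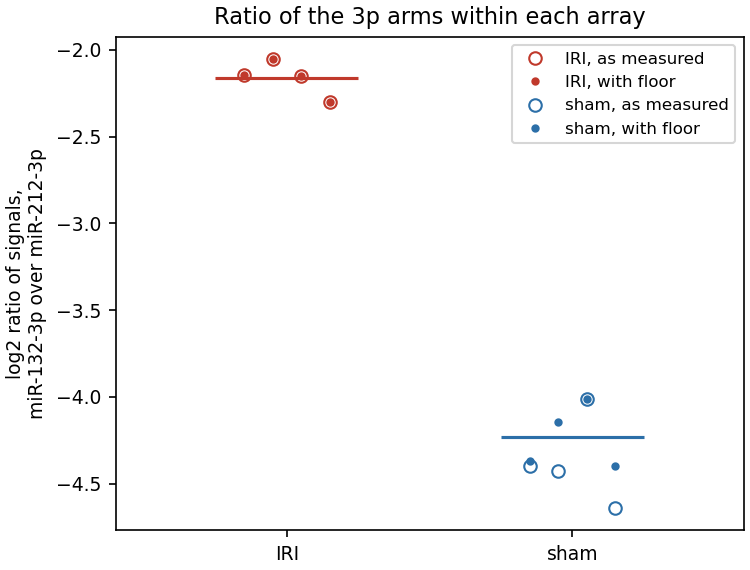
Log2 ratio of miR-132-3p to miR-212-3p signal within each array, by group, with open circles for the signals as measured, dots for values raised to the floor, and lines at the group means of the latter. IRI arrays lie between -2.30 and -2.05 and sham arrays between -4.40 and -4.01.

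Within the slide, each of the 4 columns held 1 array of either group. The IRI minus sham log2 difference of miR-132-3p was 1.67, 1.69, 1.18 and 1.58 in columns 1 to 4. That of miR-212-3p was -0.55, -0.40, -0.68 and -0.52. Each arm kept its own direction in every column, which was fixed beforehand because the groups did not overlap for either arm. In columns 1, 2 and 4 the sham value of miR-132-3p is the floor. With the column as a block the log2 changes remained 1.53 (adjusted p = 0.00415, limma) and -0.54 (adjusted p = 0.00842, limma).

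The spots show what lies behind the dim sham values of miR-132-3p. Of its 120 spots per group, 117 were well above background on IRI arrays and 5 on sham arrays. By a second mark, positive and significantly above background, the software passed 80.0% of all 120 sham spots. By probe this was 96.7% for the longer and 63.3% for the shorter, with 6 of 15 spots of the shorter in sham replicate 6. The same mark fell on 11.6% of sham spots of the 1403 miRNAs detected on no array and on 45.4% of the negative control spots of the sham arrays. Pooled over probes and sham arrays, the share of miR-132-3p lay above both, without reaching the software's threshold for a spot well above background in most cases.

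The longer miR-132-3p probe averaged 33.5 ± 1.15 on IRI arrays and 12.0 ± 2.92 on sham arrays (scaled signal, SD, n = 4 each), and the shorter one 20.6 ± 1.29 and 5.47 ± 2.04. On sham arrays at most 3 of a probe's 15 spots were well above background, so only a bound can be given there. Both probes entered the limma fit on 537 probes only through IRI arrays, and all 4 sham values of each are the probe floor, without spread. There the longer had a log2 change of 0.97 (adjusted p = 1.62e-05, limma) and the shorter of 0.26 (adjusted p = 0.00992, limma), neither a measured size. As bounds, which were not tested, the longer was higher in IRI by at least 1.77-fold and the shorter by at least 1.09-fold. A bound sets the mean of the IRI arrays against, on each sham array, the dimmest probe well above background, or the probe itself where it was brighter. The scanner software's total gene signal for sham replicate 3 equalled the total signal of the longer probe alone, 2.86 ± 0.764 (software error estimate).

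Both miR-212-3p probes were well above background in all of their spots on all arrays. The longer one averaged 190 ± 6.34 on IRI arrays and 274 ± 25.8 on sham arrays, and the shorter one 52.9 ± 4.49 and 79.4 ± 9.72 (scaled signal, SD, n = 4 each). Their log2 changes were -0.53 (adjusted p = 0.00099, limma) and -0.58 (adjusted p = 0.00221, limma). The calls of both miR-212-3p probes ended on unscaled signals and under spike-in scaling. That of the shorter miR-132-3p probe was lost in 8 of the alternative settings (adjusted p from 0.0606 to 1, limma), and that of the longer one with the floor doubled (log2 change 0.0097, adjusted p = 0.478, limma). Over all tested probes, 68 were called higher and 234 lower in IRI.

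**Figure D4:**
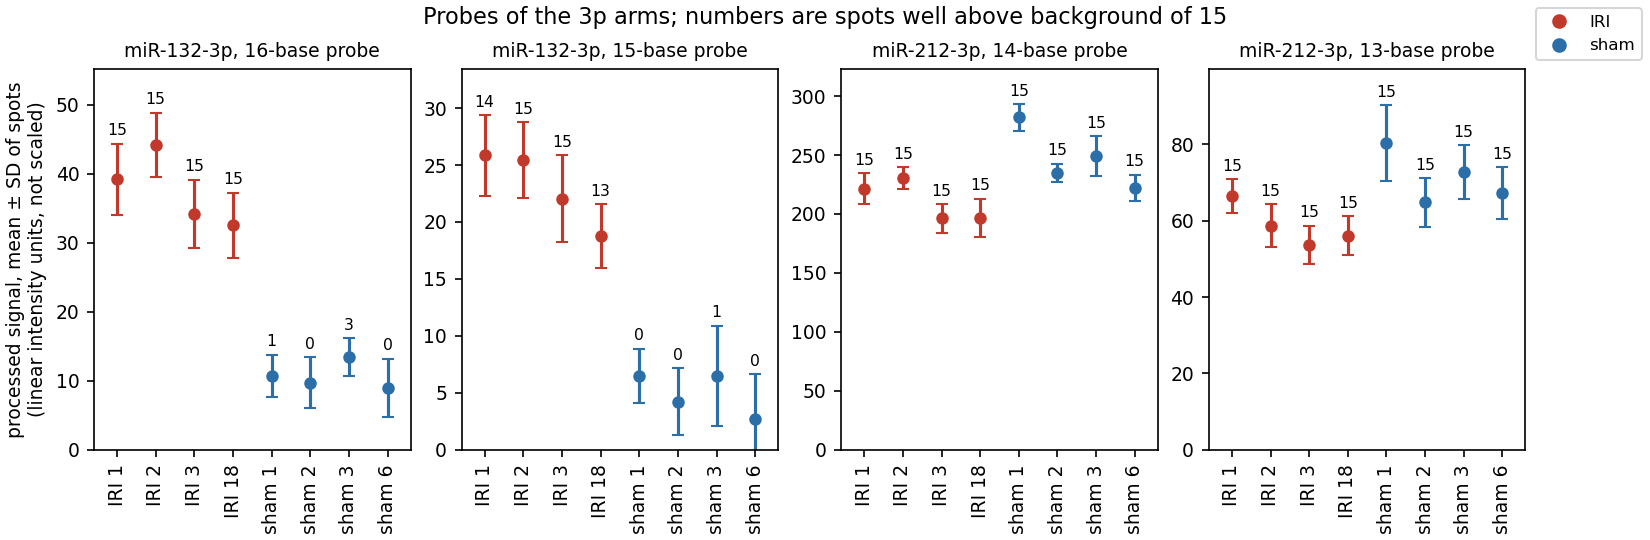
Processed signal of the 4 probes of the 3p arms on each array, before scaling between arrays, as the mean and SD of the spots used (linear intensity units), with the number of spots well above background, of 15, printed above each point. For the longer miR-132-3p probe this number is 15 on each IRI array and 0 to 3 on sham arrays, and for both miR-212-3p probes it is 15 throughout.

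The 5p arms, the opposite strands of the same hairpins, gave no measurable signal in either group. Neither was detected on any of the 8 arrays, and 0 of 120 spots per group were well above background for either arm. Scaled signals of miR-132-5p ran from -2.90 to -0.11 on IRI arrays and from -5.62 to -3.30 on sham arrays, and those of miR-212-5p from -0.64 to 0.34 and from -2.78 to 1.15. The 2 groups did not overlap for miR-132-5p, but all of its values were below 0, as happens where the subtracted background exceeds the spot. For comparison, the error estimate of a single spot of these probes was 3.14 to 3.42 on IRI arrays and 3.33 to 3.85 on sham arrays. Of 120 spots per group, the software marked 7 of miR-132-5p and 12 of miR-212-5p as positive and significant on IRI arrays, against 8 and 6 on sham arrays. These shares lie below those of the undetected miRNAs, 13.5% on IRI arrays and 11.6% on sham arrays. A change in these arms was therefore not detectable at this signal, and neither was tested.

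The authors' deposited table shows the 3p arms moving in opposite directions too. It holds a ratio per miRNA. For miR-132-3p the authors' deposited table gives 1.85, 1.97, 2.19 and 1.72 on IRI arrays, against 0.0135, 0.0194, 0.581 and 0.0204 on sham arrays. The 3 lowest sham ratios belong to the 3 arrays without detection, where the scanner software writes a total gene signal of 0.1 in place of a measurement. Taken to log2, the change of miR-132-3p in the authors' deposited table was 5.52 (adjusted p = 0.0061, limma), which rests on that placeholder and is no measured size. For miR-212-3p, measured on all arrays, the log2 change was -0.59 (adjusted p = 0.00175, limma). Both 5p arms hold, on every array, the same value as the table's blank row, as do all 1403 miRNAs detected on no array.

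The tested miRNAs with profiles nearest to each 3p arm were taken by the root mean square difference of centred log2 signals over the 8 arrays. For miR-132-3p these were miR-574-5p (0.239), miR-1187 (0.241), miR-3082-5p (0.242), miR-21a-5p (0.249) and miR-466i-5p (0.251). Their log2 changes ran from 1.27 for miR-466i-5p to 1.71 for miR-3082-5p. For miR-212-3p they were miR-6368 (0.0347), miR-6366 (0.0533), miR-5100 (0.0587), miR-429-3p (0.075) and miR-103-3p (0.0785), with log2 changes from -0.54 to -0.48. Of the 378 other tested miRNAs, miR-212-3p ranked 342nd in likeness to miR-132-3p (difference 1.04). The measure includes the change between groups itself, and 3 sham values of miR-132-3p are the floor itself.

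Of 8 miRNAs of inflammatory and injury signalling, 6 were tested, with 2 higher, 1 lower and 3 not called (median log2 change -0.07, against -0.11 over all tested). Over all tested miRNAs 12.1% were higher and 36.7% lower. One of the 2 higher, miR-21a-3p, was detected on no sham array and entered the test only through IRI arrays. miR-21a-5p, induced in injured tissue, rose by 1.47 ± 0.16 on the log2 scale (SE; adjusted p = 0.000633, limma) and miR-34a-5p, a p53 target, fell by 0.55. miR-155-5p, induced by NF-kB, stood at 0.07 ± 0.10 (log2, SE) and was not called (limma, adjusted p = 0.573). Also not called were miR-146a-5p at -0.53 ± 0.25 (limma, adjusted p = 0.117) and miR-210-3p at -0.21 ± 0.13 (limma, adjusted p = 0.223). Of 16 neuronal and activity-regulated miRNAs, a group chosen because CREB drives miR-132 and miR-212 in neurons, 10 were detected on no array and 5 were tested, with 1 higher and 1 lower (median 0.13). miR-9-5p and miR-9-3p, abundant in brain, had log2 changes of 0.13 ± 0.15 and 0.16 ± 0.12 (SE), not called, and miR-124-3p, the defining neuronal miRNA, was detected on no array.

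Marker lists of blood cells and of kidney cells are given here beside the 12.1% of all tested miRNAs called higher and the 36.7% called lower. Their part in the changes of the 3p arms was not tested. The red blood cell list had 3 of 3 tested members higher. Of these, miR-486a-5p, detected on no sham array, and miR-144-3p, detected on 2 of 4, entered the test only through IRI arrays. The brightest member of the list, miR-451a, had a log2 change of 3.53 (limma, adjusted p = 0.0106), and of 2.64 without sham replicate 1. The miR-451a call ended with all miRNAs tested (limma, adjusted p = 0.126) and with the replicate block (limma, adjusted p = 0.107). The summed scaled signal of the red blood cell list was 2948 to 4100 on IRI arrays and 40.5 to 904 on sham arrays. Of the leukocyte list, miR-223-3p, abundant in neutrophils, rose by 1.53, and the median of the 4 tested members was 0.24. The other 3 were not called: miR-142a-3p at 0.29, miR-142a-5p at 0.19 and miR-150-5p at -0.57 (limma, adjusted p = 0.0566 for miR-150-5p). The summed signal of the leukocyte list was 656 to 974.9 on IRI arrays and 446 to 612 on sham arrays. The kidney tubule list had 6 of 6 tested members lower (median -0.46), with summed signals of 16989 to 19497 on IRI arrays and 23350 to 26926 on sham arrays; miR-30a-5p fell by 0.42. Of the fibroblast and mural cell list, 2 of 5 were lower, a share near that of all tested miRNAs, and 3 were not called (median -0.39), at 1152 to 1781 on IRI arrays and 1885 to 2085 on sham arrays. Both endothelial arms of miR-126a were lower (median -0.35), at 3836 to 4321 on IRI arrays and 4623 to 5333 on sham arrays. The calls of lower kidney cell markers also ended with the scaling: on unscaled signals the log2 change was -0.12 for miR-30a-5p, -0.14 for miR-30c-5p, -0.13 for miR-143-3p and -0.02 for miR-126a-3p, none called, and under spike-in scaling none of these 4 was called either. The 5 neuron markers, 3 of them detected on no array, summed to 30.4 to 57.9 on IRI arrays and 20.5 to 43.9 on sham arrays.

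**Figure D5:**
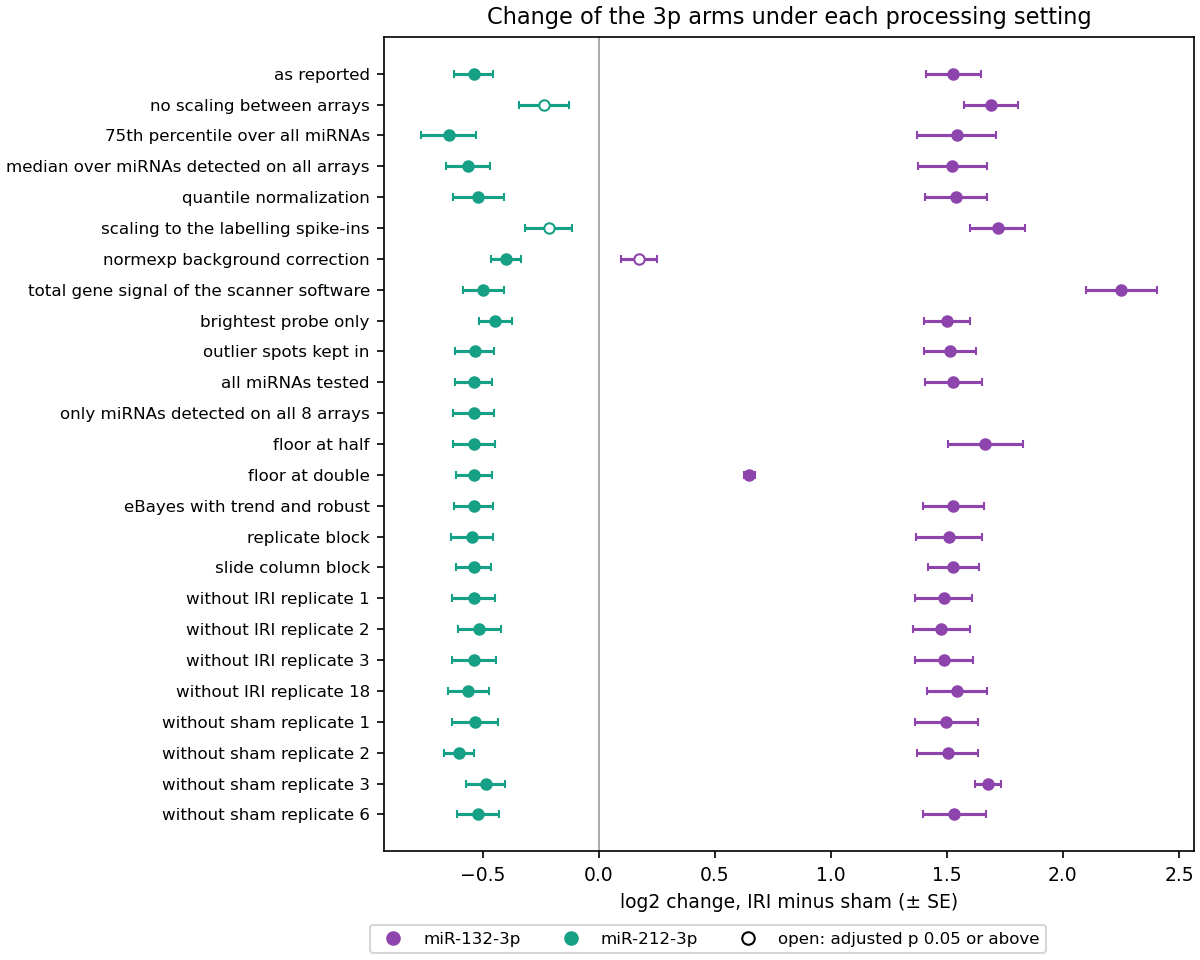
Log2 change, IRI minus sham (with SE), of miR-132-3p and miR-212-3p for each setting applied to the scanner files, with open points where the adjusted p was 0.05 or above. The miR-212-3p call ended under spike-in scaling and on unscaled signals, and the miR-132-3p call ended with normexp background correction.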

How the data were processed

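Kidney RNA was labelled with Cy3 and hybridised to Agilent mouse miRNA arrays, per the labels' protocols. Per the file headers, Agilent Feature Extraction (version 12.0.3.1) wrote the intensity of each spot, unlogged, with spatial detrending on and local background correction off. The values deposited in the series table are a ratio for each miRNA, and the sources used here do not describe how it was made; for miRNAs detected on all arrays it equals the total gene signal times 1 factor per array and per miRNA, so its exact scaling and centring stay unknown. Its column medians, 0.658, 0.646, 1.16 and 0.749 for IRI arrays and 0.859, 1.23, 1.29 and 1.30 for sham arrays, are the value of the blank row, which 1403 of 1881 miRNAs share, and describe no measured ratio.

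Spots marked as outliers (1422 to 1560 of 56430 per array) were left out, and spots were averaged per probe and summed per miRNA. Signals were scaled, floored at the 5th percentile of scaled signals of detected miRNAs, and fitted with limma 3.58.1 in R 4.3.3 (two-sided, Benjamini-Hochberg, threshold 0.05, no covariate). Probes were fitted alike, with a floor of 17.2. In simulated data with 379 miRNAs, the fit called 14 of 20 changed 1.5-fold, 18 of 20 changed 2-fold, 20 of 20 changed 4-fold, and 5 of 319 unchanged. Named miRNAs were the 4 members, the 5 nearest to each, and up to 2 of the brightest of each list. Added after their values were seen were miR-155-5p, miR-124-3p, miR-21a-3p, miR-486a-5p, miR-146a-5p, miR-210-3p, miR-142a-5p and miR-150-5p. The members and lists were chosen with earlier results of these data known. Slide positions came from the file names.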

Additional observations from a re-analysis of the deposited data

Results flagged for a closer look

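Groups of 4 arrays were checked for 1 value standing apart from the other 3; 6 of 78 groups had one, where chance gives about 1 in 20. In the authors' deposited table, miR-132-3p stood at 0.581 in sham replicate 3, against 0.0135 to 0.0204 on the other sham arrays. The longer miR-132-3p probe read 35.3 (scaled signal) in IRI replicate 2, against 32.8 to 33.2 on the other IRI arrays. Among probes without detectable signal, the shorter miR-132-5p probe read -0.56 in IRI replicate 1 (others -1.33 to -1.31) and -3.61 in sham replicate 6 (others -2.28 to -2.09), and the longer miR-212-5p probe read -1.50 in sham replicate 6 (others 0.02 to 0.11). miR-126a-3p, of the endothelial list, read 4476 in sham replicate 2, against 5101 to 5165 on the other sham arrays.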

How the results depend on the processing

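Setting the main results against each alternative, 185 comparisons kept direction and side of the threshold (counts within 1.5 times), 17 lost the call, 8 counts moved and 0 reversed. Of the 185, 20 are the pair of 3p arms at p = 0.0286, the smallest that the exact permutation test can give. Of the 17, 1 is the sign-flip test given below, which could not have passed the threshold. The tally thus includes outcomes fixed beforehand. Leaving out each array in turn gave log2 changes of 1.48 to 1.68 for miR-132-3p (adjusted p up to 0.00239, limma) and -0.60 to -0.49 for miR-212-3p (up to 0.00751), with 36 to 64 miRNAs higher and 114 to 144 lower. For miR-132-3p only sham replicate 3 lies above the floor in the main values. Its narrow range therefore rests largely on floored sham values and gives no measured size. The miR-132-3p call ended with normexp (0.17, 18 miRNAs higher), and could not be made where only miRNAs detected on all 8 arrays were tested. The miR-212-3p call ended without scaling (-0.24; 53 higher and 1 lower) and with the spike-ins (-0.22; 72 higher and 2 lower); the cause was not tested. In these scalings the miR-212-3p probes had changes of -0.22 and -0.28, and of -0.20 and -0.26. The shorter miR-132-3p probe, at the floor on all sham arrays, lost its call without scaling (0.31), with the spike-ins (0.33), the all-miRNA percentile (0.30), the median (0.28), quantile normalization (0.25), normexp (0.0607) and the doubled floor (0.00), where the longer one had 0.0097. Testing all miRNAs gave 21 higher and 90 lower. Same-numbered arrays did not deviate together (correlations -0.09, -0.14 and 0.28). Among other pairs the largest correlation was 0.59, for IRI replicate 18 and sham replicate 6, both in slide column 4. Those arrays have no partner in the replicate block, so its changes rest on replicates 1, 2 and 3. With that block the changes were 1.51 and -0.55, the shorter probe had 0.30 (not called), and 17 miRNAs were higher and 50 lower. Within slide columns the difference between the 3p arms was 2.07 (exact sign-flip test, two-sided, p = 0.125, the smallest possible). That outcome too was fixed by the separation of the arms. Signs turned for miR-34b-5p (-0.0297 with the all-miRNA percentile, -0.016 with quantile normalization, -0.15 with normexp), miR-126a-3p (0.13 with quantile normalization, 0.000316 with the spike-ins), miR-9-5p (-0.15) and miR-9-3p (-0.15, both with normexp). Depth on an array is signal over background, which limits miR-132-3p on sham arrays and both 5p arms throughout.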
